A study of Mus musculus with 4 samples.

Results

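The 10 genes Epcam, Cdh1, Cldn4, Cldn7, Pax2, Pax8, Elf3, Esrp1, Grhl2 and Ehf mark epithelial cells, and they were followed here through the accessible chromatin of mouse visceral fat. They were listed by name as genes of the epithelia that lie next to abdominal fat, with earlier results of these data known, out of 21000 genes with a curated RefSeq coding transcript. The question was whether any library held open epithelial loci. Accessible sites were mapped by ATAC-seq, in which a transposase cuts open chromatin and leaves sequencing adapters there, so that read pile-ups, called as peaks, mark open sites. Nuclei came from the visceral fat of 4 mice of the outbred CD-1 stock, aged 8 weeks. The 2 control libraries came from the line of dams given sesame oil, and the 2 BPA libraries from the line of dams given bisphenol A (BPA), a plasticiser, at 50 mg/kg by injection on each of embryonic days 7.5 to 13.5. Both lines thus began with injected dams. The generation sampled was not settled, since the titles of the BPA samples name F3 and the study's text names F4. The study describes the mice sampled as descendants of the injected dams that were not treated themselves. The labels named no fat depot beyond visceral, and no sex. The promoters of 4 of 4 genes of the Y chromosome (Kdm5d, Eif2s3y, Uty and Ddx3y) had a peak in each of the 4 libraries.

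Epithelial cells are held together by E-cadherin, the product of Cdh1, by the adhesion molecule EpCAM and by tight junctions built from claudins. Their gene program is kept by factors such as grainyhead-like GRHL2 and the ETS factors ELF3 and EHF, and by the splicing regulator ESRP1. Pax2 and Pax8 are paired-box factors of the kidney and of the ducts of the reproductive tract. Adipocytes, fibroblasts and endothelial cells do not run this program, and in mesenchymal cells ZEB and SNAI proteins bind the letters CACCTG in the promoters of Cdh1 and other epithelial genes and repress them.

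The promoter of Cdh1 is the best known target of these repressors, so the 120 bases before its start site (mm10, chr8:106603230-106603349, plus strand) are shown, with every CACCTG, on either strand, in capitals.

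Cdh1 upstream: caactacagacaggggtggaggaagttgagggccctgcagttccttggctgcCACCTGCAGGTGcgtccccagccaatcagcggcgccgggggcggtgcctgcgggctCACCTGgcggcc

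The stretch held 3 such boxes, which began at -68, -62 and -12 counted from the start site, the first and the second back to back. Over the same 120 bases, 7.80% of all 21000 coding genes held at least 1 box and 0.567% held 2 or more, any orientation counted. Neither control library had a peak over this sequence or within 500 bp of the Cdh1 start site, and both BPA libraries did.

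In both controls and BPA 1 most of the 10 epithelial promoters had no peak. In BPA 2, the library with the widest peaks, 6 of the 10 had one of middling rank. A promoter peak is a peak that touched the 500 bp on either side of any curated start site of the gene. Control 1 had one at 2 of the 10 genes, control 2 at 1, BPA 1 at 3 and BPA 2 at 6. Among all coding genes the shares in the same order were 62.6%, 61.4%, 64.1% and 67.4%. The 10 epithelial genes thus fell below that share in control 1, control 2 and BPA 1, and near it in BPA 2. When the summit itself had to lie in the window, the counts were 0, 1, 1 and 2 in the same order. The control mean was 1.5 ± 0.707 genes (SD, n = 2) and the BPA mean was 4.5 ± 2.12 genes (SD, n = 2). With 2 libraries a side an exact permutation test, two-sided, cannot go below 0.333, so no test between groups was run. The 4 counts did not overlap between the groups, but BPA 1 and control 1 differed by a single gene, and without BPA 2 the BPA value was 3. The libraries mix all cell types of the tissue, so a site open in few cells cannot be told apart from one slightly open in many.

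None of the 10 genes had a promoter peak in all 4 libraries, against 57.9% of coding genes. Cldn4, Pax8 and Ehf had a promoter peak in no library, 3 of 10 against 30.4% of coding genes. Cdh1 alone had one in the BPA pair but not in the control pair, a pattern shown by 2.51% of coding genes. None had the opposite pattern, which held for 0.433% of coding genes.

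**Figure D1:**
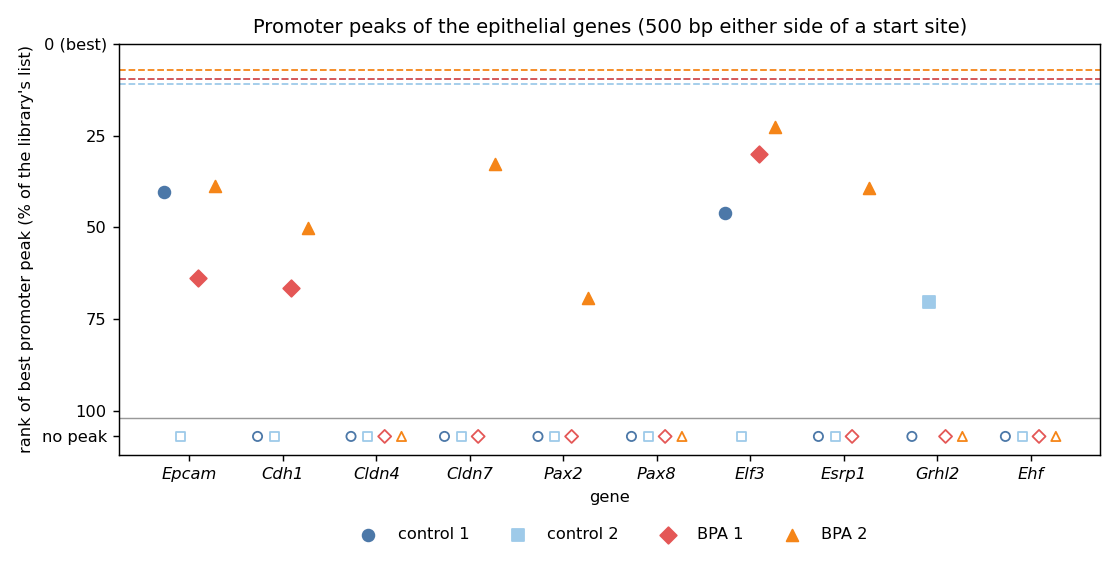
Rank of the best promoter peak of each epithelial gene in each library, in percent of that library's peak list ordered by q-value (0 is the best peak; open symbols in the bottom row mark no promoter peak), with dashed lines at the median over all coding genes that had one. The best filled symbol is Elf3 in BPA 2 at 22.8%, and every filled symbol lies below the dashed lines, which stand between 7.08% and 10.9%.

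Peaks within a library were ordered by the −log10 q-value of the deposited list, and the rank is given as a percent of that list, so that a small value is a strong peak. The median best promoter peak of a coding gene ranked at 9.55% and 10.9% in control 1 and control 2, and at 9.53% and 7.08% in BPA 1 and BPA 2. The promoter peaks of the 10 epithelial genes ranked between 22.8% and 70.5%. Only Elf3 in BPA 2 was in the best 25% of its list, whereas 47.9%, 45.1%, 50.8% and 56.1% of all coding genes had a promoter peak there, with the libraries in that order. A middling rank did not mark a gene foreign to fat. The promoter peak of Adipoq, the adipocyte hormone adiponectin, ranked at 58.6%, 20.3%, 67.2% and 51.2% in the same order.

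The CpG content of a promoter goes with whether it is open in most tissues, and it was measured as the ratio of observed to expected CpG within 500 bp of the first start site. Grhl2 at 0.757, Cdh1 at 0.717 and Pax2 at 0.656 were above 0.6, as were the promoters of 10363 coding genes, and the other 7 ranged from 0.221 in Pax8 to 0.585 in Esrp1. Among the 10363, a promoter peak was present for 91.9% and 91.1% in control 1 and control 2, and for 94.1% and 96.3% in BPA 1 and BPA 2. Of Grhl2, Cdh1 and Pax2, 0, 1, 1 and 2 had one, in that order. Among promoters under 0.6 the shares were 34.0%, 32.5%, 35.0% and 39.4%, and of the 7 epithelial genes in that class 2, 0, 2 and 4 had a promoter peak. The CpG-rich members thus fell short of their class in each library. The other 7 had counts near the share of theirs in control 1 and BPA 1, none in control 2, and a count above it in BPA 2. The ratio was taken at the first start site, but peaks were counted at any. With the first start site alone, BPA 2 had promoter peaks at 4 of the 10 genes instead of 6.

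Within 500 bp of the first start site, 9 of the 10 genes held CACCTG on either strand, Pax2 being the exception. Cdh1 and Ehf held 4 copies each, Epcam, Cldn4 and Grhl2 held 3, Cldn7, Elf3 and Esrp1 held 2, and Pax8 held 1. In windows of this length 55.9% of all coding promoters held the letters at least once. The letters AACCGGTT, bound by grainyhead-like factors, were in none of the 10 windows and in 0.481% of all.

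For the regions around the genes, an interval ran from 20 kb upstream of the first start site to the gene's end, and peaks that touched the promoter window of another curated gene were set aside. The peaks that remained are called own-locus peaks. Control 1 had 17 of them over the 10 genes, control 2 had 15, BPA 1 had 17 and BPA 2 had 36. At least 1 was present at 8, 6, 9 and 10 genes in that order, against 74.5%, 75.8%, 72.9% and 76.9% of all coding genes.

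The control mean was 16 ± 1.41 own-locus peaks (SD, n = 2) and the BPA mean 26.5 ± 13.4 (SD, n = 2). BPA 1 had as many as control 1, and the difference between the means was within the spread of the BPA pair. With −log10 q-values of at least 5 the counts were 7 and 11 in control 1 and control 2, and 16 and 34 in BPA 1 and BPA 2, so that BPA 1 then exceeded both controls. A −log10 q-value near 5 lay at 60.1% of the list in control 1 and 63.5% in control 2. In BPA 2 it lay at 84.7%, and in BPA 1 a value of 5.69 lay at 69.6%. The cut thus kept a larger part of each BPA list than of either control list. Per 100 kb of interval the epithelial genes had 2.56 and 2.26 own-locus peaks in control 1 and control 2, and 2.56 and 5.42 in BPA 1 and BPA 2. All coding genes had 4.09, 4.46, 3.88 and 5.20, so that the epithelial loci were sparser than the rest in the 3 other libraries and about as dense in BPA 2. BPA 2 also had the longest list, with 98060 peaks against 72375 to 88911, the widest peaks, with a median of 780 bp against 456 to 567 bp, and the highest pile-up at the median peak, 38 reads against 19 to 23. The part of these values in the result was not tested. With every list cut to its best 72375 peaks, BPA 2 still had promoter peaks at 6 genes and had 27 own-locus peaks, against 13 to 17 in the other libraries.

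**Figure D2:**
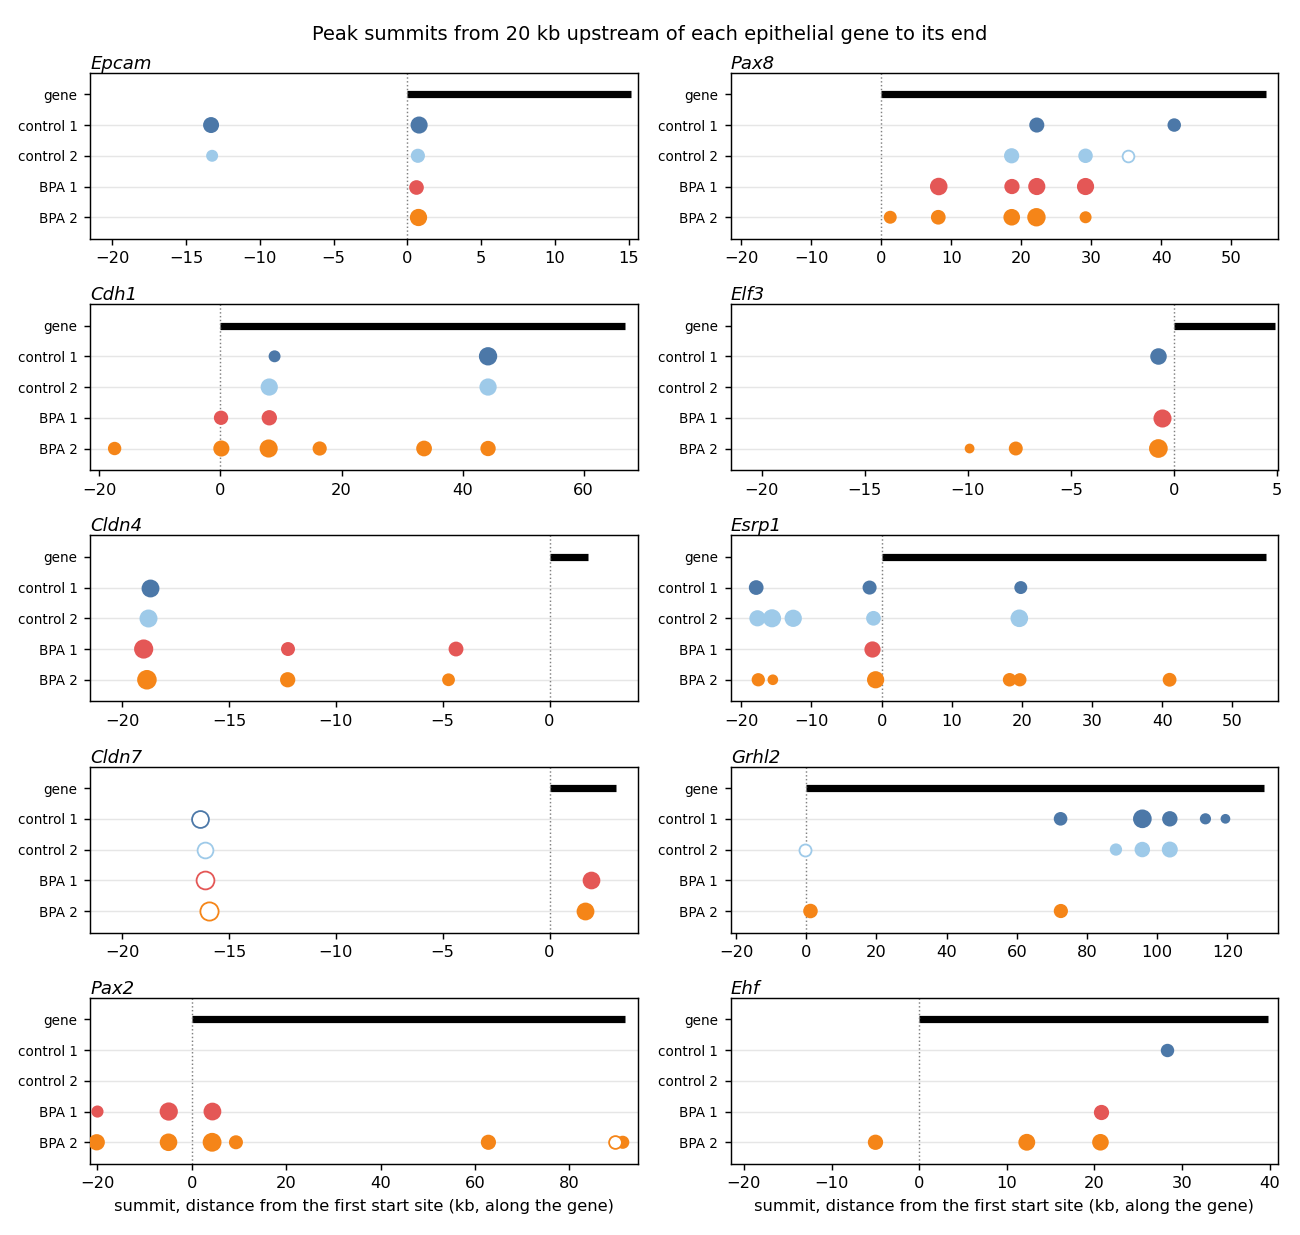
Peak summits around each epithelial gene in the 4 libraries, by distance in kb from the first start site along the direction of transcription, with the gene drawn as a black bar; larger circles rank better in their library and open circles touch the promoter of another gene. The summits at Cdh1 +44.2 kb and Cldn4 -18.9 kb recur between groups, Pax2 has circles in the BPA rows only, and BPA 1 has none at Grhl2.

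The 2 adhesion genes behaved differently. Epcam had 1 site near its start that was called in every library. It ranked at 40.5% and 68.2% in control 1 and control 2, and at 63.8% and 38.7% in BPA 1 and BPA 2, with 23, 14, 12 and 38 reads in the pile-up. The summit lay 592 to 793 bp downstream of the annotated start site, in exon 2, and 47 to 248 bp before the first coding base, which is 840 bp from the start site. Whether it counted as a promoter peak rested on its width. The peak reached to 32 to 271 bp from the start site in control 1, BPA 1 and BPA 2, and stopped at 522 bp in control 2, just outside the window. A weaker site at -13.3 kb was called in both controls, at 51.7% and 84.9%, and in neither BPA library.

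Cdh1 had its promoter peak at 66.6% in BPA 1 and 50.2% in BPA 2, with pile-ups of 12 and 32 reads and summits 96 and 149 bp downstream of the start site. The peaks were 875 and 1030 bp wide. Deeper in the gene the peaks of the controls all lay in intron 2, at sites that 1 or both BPA libraries also had. One at +44.2 kb was called in control 1, control 2 and BPA 2, at 27.1%, 38.9% and 57.8%, with 26, 21 and 26 reads and summits that fell within 1 bp of each other. Both controls thus had a better-ranked site in this intron than either BPA library had at the promoter, and BPA 1 had no peak at +44.2 kb. A broader stretch near +8.0 kb was touched by all 4 libraries, at 85.1% and 39.1% in control 1 and control 2, and at 57.6% and 29.4% in BPA 1 and BPA 2. The peaks of control 2, BPA 1 and BPA 2 had summits at +8.0 to +8.1 kb, but that of control 1 was at +8.9 kb and did not overlap the peak of control 2. BPA 2 alone added peaks at -17.5, +16.4 and +33.6 kb.

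Sites that recurred between libraries are firmer than single calls, so the 101 bases around 1 such site are given for each of 7 genes, the best-ranked region of the gene with that set of libraries. At Pax8 another region, at +22.2 kb, ranked better in a different set of 3 libraries. All lie outside exons of the member, are written along the gene's own strand from the mm10 assembly, and have in capitals the bases from the lowest to the highest summit of the libraries named. The Cldn4 region was called in all 4 libraries, and the Elf3 region in BPA 1 as well as the libraries named. The summits of control 1, control 2 and BPA 1 at Cldn4, and of BPA 1 at Elf3, lie outside the printed bases.

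Cldn4 -18.9 kb, chr5:134965734-134965834, minus strand, summit of BPA 2: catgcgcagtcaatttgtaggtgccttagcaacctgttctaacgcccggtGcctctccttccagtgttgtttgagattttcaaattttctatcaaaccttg
Cdh1 +44.2 kb, chr8:106647508-106647608, plus strand, control 1, control 2 and BPA 2: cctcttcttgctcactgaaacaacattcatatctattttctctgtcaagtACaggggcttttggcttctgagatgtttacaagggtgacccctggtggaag
Pax8 +29.2 kb, chr2:24446355-24446455, minus strand, control 2, BPA 1 and BPA 2: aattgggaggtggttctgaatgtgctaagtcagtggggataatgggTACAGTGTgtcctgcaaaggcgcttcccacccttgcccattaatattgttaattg
Grhl2 +95.8 kb, chr15:37328760-37328860, plus strand, control 1 and control 2: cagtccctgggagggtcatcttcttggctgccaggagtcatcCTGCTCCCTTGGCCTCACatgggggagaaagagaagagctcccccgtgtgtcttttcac
Pax2 +4.3 kb, chr19:44750882-44750982, plus strand, BPA 1 and BPA 2: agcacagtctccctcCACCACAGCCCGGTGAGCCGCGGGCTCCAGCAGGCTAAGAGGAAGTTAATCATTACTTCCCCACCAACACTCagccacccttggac
Elf3 -0.8 kb, chr1:135259193-135259293, minus strand, control 1 and BPA 2: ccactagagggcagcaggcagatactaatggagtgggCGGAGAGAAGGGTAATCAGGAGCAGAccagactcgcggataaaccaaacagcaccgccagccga
Ehf +20.7 kb, chr2:103282453-103282553, minus strand, BPA 1 and BPA 2: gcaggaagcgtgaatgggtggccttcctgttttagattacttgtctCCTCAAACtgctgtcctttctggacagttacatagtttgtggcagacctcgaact

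None of the 7 windows held CACCTG on either strand, AACCGGTT, or the AP-1 letters TGANTCA. In the best-summit windows of all 147153 merged regions of the series the shares were 4.32%, 0.0333% and 5.55%, so a window without them is the usual case.

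The claudins Cldn4 and Cldn7 seal tight junctions. Cldn4 had no peak within 500 bp of its start site in any library, but an intergenic site at -18.9 kb was called in all 4. It ranked at 32.1% and 31.0% in control 1 and control 2, and at 17.3% and 12.7% in BPA 1 and BPA 2, with 28, 29, 38 and 113 reads, which made it the best-ranked own-locus peak of either BPA library. Both BPA libraries ranked it better than both controls did, and the summits spread over 278 bp. Sites at -4.4 and -12.3 kb were called in both BPA libraries, at 58.3% to 79.0%, but in no control. Cldn7 had an own-locus peak in the BPA libraries only, in intron 2 by its summit, at 34.1% in BPA 1 and 32.7% in BPA 2, with 21 and 53 reads. It counted as a promoter peak in BPA 2, where its edge was 283 bp from the second start site of the gene, and not in BPA 1, where its edge was 701 bp away. In the upstream part of the Cldn7 interval all 4 libraries had a peak at the promoter of Slc2a4, the insulin-responsive glucose transporter of adipocytes, at 23.2%, 35.0%, 11.8% and 6.76%. That peak was not counted for Cldn7.

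Of the paired-box genes, Pax2 split by group, as Cldn7 did for its own-locus peaks. How many coding genes split in this way over such an interval was not counted. Neither control had any peak from 20 kb upstream of Pax2 to its end, and BPA 1 had 3 own-locus peaks and BPA 2 had 6. The site at +4.3 kb, in intron 1, ranked at 33.1% in BPA 1 and 21.2% in BPA 2, with 28 and 92 reads and summits 71 bp apart. The site at -4.9 kb ranked at 28.2% and 35.4%, with 26 and 48 reads, and its summits were 48 bp apart. One more shared site at the far edge, -20.1 kb, ranked at 83.6% and 48.4%. The local background, set relative to the lowest of the library, was 3.04 and 3.81 at the +4.3 kb site, against medians of 1.55 and 1.296 over the own-locus peaks of BPA 1 and BPA 2. The promoter peak of Pax2 was a 2472-bp peak of BPA 2, ranked at 69.3%, that covered both downstream start sites and not the first, with a fold over background of only 2.94.

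Pax8 had no promoter peak in any library but had recurring sites inside the gene. In intron 2, where the noncoding gene Gm13415 also lies over the sites at +18.6, +22.2 and +29.2 kb, 3 regions were each called in 3 libraries. The +29.2 kb site ranked at 65.2% in control 2, 39.7% in BPA 1 and 84.7% in BPA 2, with summits within 7 bp. The +22.2 kb site ranked at 60.1% in control 1, 39.8% in BPA 1 and 26.2% in BPA 2, and the +18.6 kb site at 58.9% in control 2, 58.5% in BPA 1 and 45.4% in BPA 2. Each of the 3 was thus found in both BPA libraries and in 1 control. A site at +8.2 kb was in the BPA libraries only, at 35.8% and 63.4%.

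The ETS factor genes Elf3 and Ehf act in epithelial differentiation. Elf3 had the best-ranked promoter peak of the 10 genes, with ranks of 46.1% in control 1, 29.9% in BPA 1 and 22.8% in BPA 2 and pile-ups of 19, 25 and 66 reads. Control 2 had no peak anywhere in the Elf3 interval. The summits lay between -574 and -784 bp from the start site, so the peak was called a promoter peak through its edge, which lay 35 bp from the start site in control 1, 45 bp from it in BPA 2 and 431 bp from it in BPA 1. Peaks at -7.7 and -9.9 kb, in the neighbouring gene Rnpep, were in BPA 2 alone. Ehf had no promoter peak. Its only recurring site was at +20.7 kb in intron 2, at 58.5% in BPA 1 and 45.3% in BPA 2, with summits within 7 bp. Control 1 had a single peak at +28.3 kb, at 74.2%, and control 2 had none.

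Esrp1, which directs epithelial splice forms, and Grhl2, which opens epithelial enhancers, were, with Epcam, the genes that did not have fewer own-locus peaks in the control pair than in the BPA pair. Esrp1 had 3, 5, 1 and 6 own-locus peaks in control 1, control 2, BPA 1 and BPA 2. Just upstream of its start site every library had a peak, at 68.9%, 63.5%, 49.2% and 39.4%. Only the BPA 2 peak reached the window, with its edge at 449 bp, and the others stopped at 1159, 744 and 608 bp. The BPA 2 peak was 1245 bp wide, and its summit was also the closest to the start site. That summit lay at -863 bp, against -1720, -1167 and -1309 bp in control 1, control 2 and BPA 1. Further sites at +19.6 and -17.7 kb were in control 1, control 2 and BPA 2, and were ranked best in control 2, at 34.9% and 49.4%.

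Grhl2 had 5, 3, 0 and 2 own-locus peaks in the same order. A site at +95.8 kb in intron 9 was called in both controls, at 23.2% and 56.4%, with 26 and 18 reads and summits 17 bp apart, and in neither BPA library. Another at +103.6 kb in intron 11 was in both controls at 57.1% and 51.8%, with summits within 8 bp. BPA 1 had no peak over the 150.5 kb of the interval. The promoter peak of control 2 was 212 bp wide with 14 reads, ranked at 70.5%, and also touched the promoter of the noncoding gene Gm16136. In BPA 2 the nearest peak stopped 779 bp from the start site.

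**Figure D3:**
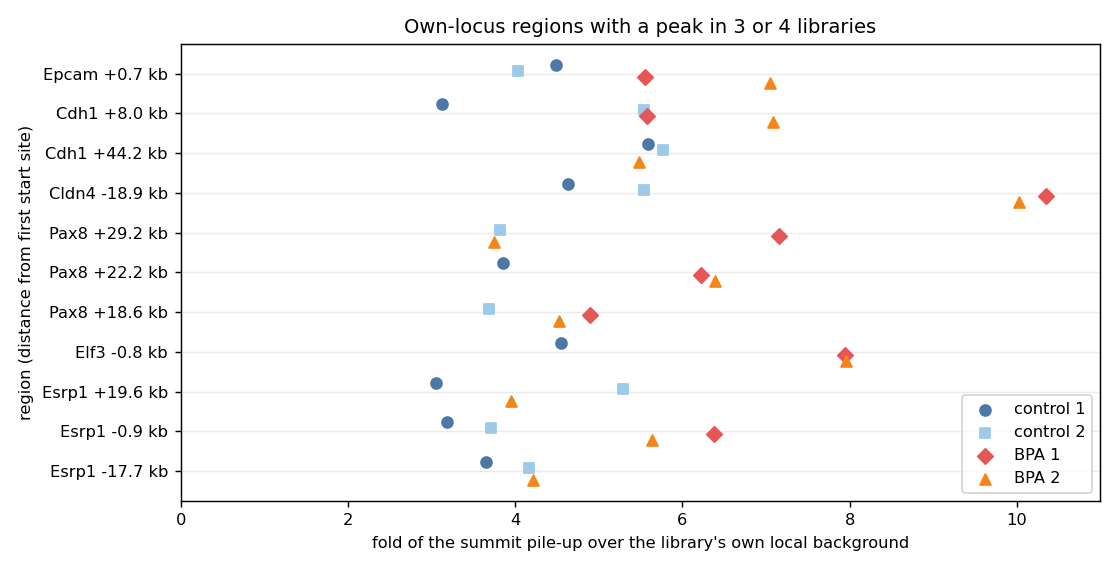
Fold of the summit pile-up over the local background of its library for the 11 own-locus regions with a peak in at least 3 libraries, with 1 symbol per library and none where no peak was called. The Cldn4 site at -18.9 kb has the highest folds, 10.4 in BPA 1 and 10.0 in BPA 2; folds run higher in the BPA libraries as a whole, with medians over all peaks of 5.69 and 5.01 against 3.91 and 4.29 in controls.

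Merged across libraries, the own-locus peaks made 45 regions. Of these, 20 were called in 1 library, 14 in 2, 7 in 3 and 4 in all 4, and BPA 2 alone accounted for 14 of the 20. The regions of BPA 2 alone ranked between 43.1% and 98.3% of its list, none in the best 25%. The 11 regions found in at least 3 libraries had a best rank between 12.7% and 49.4%, with 2 in the best 25%, at Cldn4 and Elf3. The BPA pair shared 9 regions, spread over 6 genes, that neither control had, and the control pair shared 3 that neither BPA library had, 1 at Epcam and 2 at Grhl2.

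Away from all curated start sites the epithelial genes had 39 regions, and the series had 131478. Of the 39, 17.9% were shared by the BPA pair alone, against 10.0% of all, and 7.69% were shared by the control pair alone, against 5.86%. Regions called in all 4 libraries numbered 2 of the 39 and 26280 of all, and regions of BPA 2 alone made up 33.3% and 14.5%. The sites near epithelial genes were thus seldom shared by all 4 libraries. No test was run on these shares, since neighbouring regions and the 4 lists are not independent.

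Other genes set the scale. Of 27 further epithelial genes, control 1 had a promoter peak at 17, control 2 at 10, BPA 1 at 15 and BPA 2 at 18. These were 63.0%, 37.0%, 55.6% and 66.7% of the list, near the shares of all coding genes in control 1 and BPA 2, somewhat below in BPA 1 and well below in control 2. Of the 27, 6 had a promoter peak in all 4 libraries, against 57.9% of coding genes, and 5 had one in none, against 30.4%. Control 2 was lowest and BPA 2 highest here as for the 10 genes. Control 1 exceeded BPA 1 and nearly equalled BPA 2, so the order of control 1 and BPA 1 was reversed. Of the 4 keratin genes of the list, Krt18 had no promoter peak in any library, and Krt8 and Krt19 had one in control 1 alone, at 63.6% and 75.4%. Krt7 had one at 46.9%, 65.8% and 74.0% in control 1, control 2 and BPA 1, and none in BPA 2. Ovol1, Ovol2 and Spint1, 3 of the 27, showed the pattern of Cdh1, a promoter peak in the BPA pair alone, against 2.51% of coding genes. Trp63 had the opposite pattern, at 59.8% in control 1 and 75.1% in control 2, which held for 0.433% of coding genes. Muc1, a mucin of glandular surfaces that lies among other genes, ranked at 18.2% in control 1, 18.03% in BPA 1 and 9.16% in BPA 2, and had none in control 2.

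Genes typical of a named neighbouring organ were mostly without a promoter peak. Of 15 urogenital and renal genes, 2, 2, 2 and 3 had a promoter peak in control 1, control 2, BPA 1 and BPA 2. The shares of all coding genes in that order were 62.6%, 61.4%, 64.1% and 67.4%. Of the 15, 12 had none in any library, against 30.4% of coding genes. Emx2, and Lrp2, a receptor of the kidney proximal tubule, had one in all 4, Lrp2 at 34.5% to 58.2%, and Lhx1 had one in BPA 2 alone, at 86.0%. The 12 without one in any library were Cdh16, Wfdc2, Ovgp1, Lcn5, Lcn8, Crisp1, Spag11a, Adam7, Umod, Slc34a1, Slc12a1 and Aqp2, genes of epididymis, oviduct and kidney. The oviduct gene Ovgp1 cannot inform on a neighbouring organ here, since promoters of Y chromosome genes had peaks in all 4 libraries. Mesothelium is the sheet that covers visceral fat and itself carries some epithelial genes. Of 8 mesothelial genes, 6, 5, 5 and 2 had a promoter peak in the same order, or 75%, 62.5%, 62.5% and 25%. The shares of control 1, control 2 and BPA 1 were near or above those of all coding genes, and that of BPA 2 was below. BPA 2, with the most epithelial peaks, thus had the fewest mesothelial ones. Whether such cells contributed to any of the peaks was not tested.

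**Figure D4:**
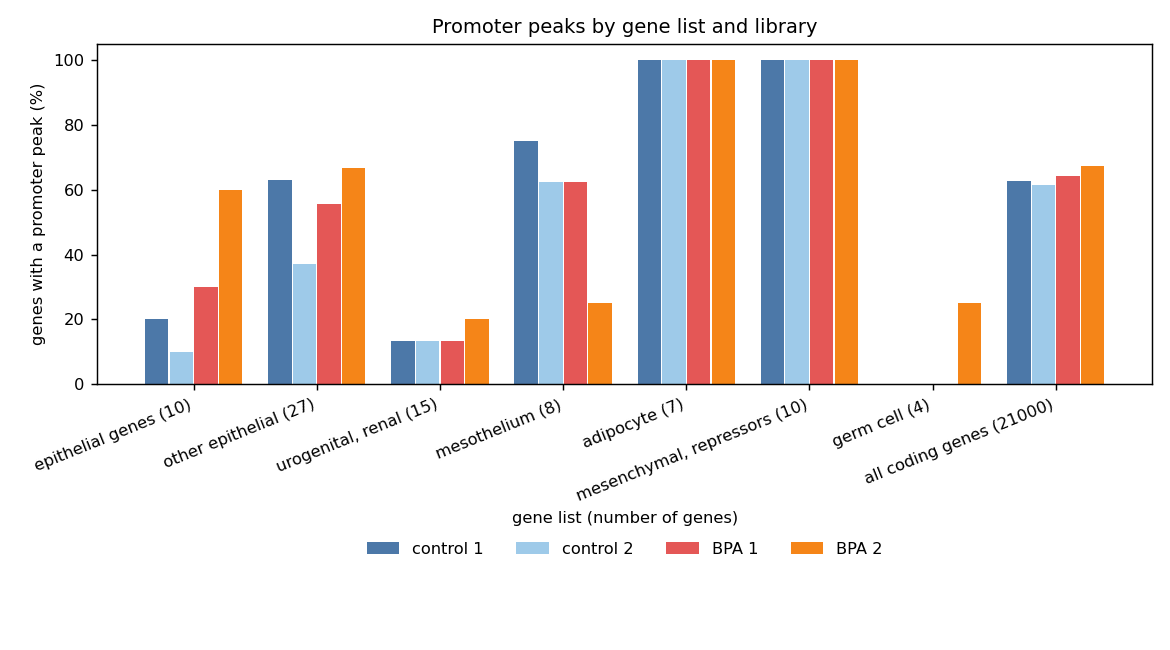
Percent of genes with a promoter peak in each library, as bars from 0, for the 10 epithelial genes, 6 comparison lists and all 21000 coding genes, with the number of genes of each list on the axis. The epithelial genes rise from 10% in control 2 to 60% in BPA 2, while all adipocyte genes and all mesenchymal genes with repressors stand at 100% in each library.

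All 7 adipocyte genes (Cebpa, Pparg, Lep, Adipoq, Plin1, Fabp4 and Cidec) had a promoter peak in all 4 libraries, against 57.9% of all coding genes. All 10 mesenchymal genes and repressors of the epithelial program did as well, including Zeb1, Zeb2, Snai1, Snai2 and Twist1, and so did the 4 genes used by every cell. The pattern was thus not particular to adipocyte genes. The adipocyte promoter peaks had median ranks of 54.3%, 23.1%, 64.7% and 51.2% in control 1, control 2, BPA 1 and BPA 2.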

How the data were processed

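Omni-ATAC libraries were made by the authors from 4 mice, 2 per group. As stated in the study's methods and the submitters' notes, reads were trimmed with Trim Galore, mapped to mm10 with Bowtie2 2.3.5.1, restricted to unique alignments, cleared of duplicates with SAMtools, and called into peaks for each library alone with MACS2 2.2.7.1. Other options of the caller are not given in the sources used here. The deposited peak lists hold a score (10 times the −log10 q-value, as a whole number), a ratio (fold of the summit pile-up over local background), a −log10 p-value, a −log10 q-value and the summit position, all set by the authors. The lowest −log10 q-value was 1.30 to 1.31 in each list. The file of BPA 2 carries a different replicate number from its label. Read totals are not in the lists. The pile-up at each summit was therefore solved from the fold and the −log10 p-value, with all peaks solved in each library, and the lowest local background, a rough gauge of depth, was 2.85, 2.70, 1.16 and 3.80 reads in control 1, control 2, BPA 1 and BPA 2.

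GRCm38, the assembly that mm10 stands for, gave 31601 distinct start sites from 45756 curated transcripts of RefSeq. A peak counted when it shared at least 1 bp with a window. Peaks were ranked within a library by −log10 q-value. Regions are unions of overlapping peaks. The printed sequences were read from the RefSeq copy of that assembly. Calls were checked on simulated data. Python 3.11.15, pandas 2.3.3 and scipy 1.17.1 were used. The members, the lists and the tests were chosen with earlier results of these data known. All 10 members are named. Genes of other lists were to be named where their promoter peak was present in some libraries only, to a limit of 12, and the others named (Adipoq, Emx2, Lrp2, Lhx1 and those without any peak) as well as the printed windows and TGANTCA were chosen after their values were seen. One item of a comparison list is not reported here. The 4 mice are separate animals. No test between groups was run.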

Additional observations from a re-analysis of the deposited data

How the results depend on the processing

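No paired analysis was possible because no between-group test was run and the replicate numbers are not stated to mark a shared litter, batch or day. Keeping −log10 q-values of at least 5 left 9 own-locus peaks on average in controls and 25 in BPA, a wider gap than with all peaks. That cut kept a larger part of each BPA list than of either control list. With the best 20000 peaks of each list, none of the 10 genes had a promoter peak in any library, so both group means were 0. Own-locus peaks then averaged 0.5 in controls and 1 in BPA. Asking for the summit in the promoter window gave means of 0.5 and 1.5 genes, with 7 genes in no library. A window of 1000 bp gave a control mean of 2.5 and 1 gene, Epcam, in all 4 libraries. With only the first start site, 5 genes had no promoter peak. Own-locus means in controls and BPA were 10.5 and 16.5 without the upstream part and 29 and 40.5 with 50 kb upstream. Leaving out one library, the control promoter mean lay between 1 and 2 and the BPA one between 3 and 6, genes with a promoter peak in all libraries left from 0 to 2 (2 without control 2), genes in none from 3 to 6 (6 without BPA 2), and own-locus means between 15 and 17 for controls and between 17 and 36 for BPA (17 without BPA 2). The BPA mean was above the control mean in every alternative except the best 20000 peaks for promoters. In some alternatives only BPA 2 exceeded both controls in own-locus peaks. With 50 kb upstream control 1, control 2 and BPA 1 each had 29, and BPA 2 had 52. Without the upstream part the counts were 12, 9, 10 and 23 in that order. BPA 1 exceeded both controls with −log10 q-values of at least 5 and with lists cut to equal length. Counting peaks shared with an own start site, an alternative added after seeing the data, moved the control mean to 16.5. Read totals are not in the lists, and the lowest background is only a rough gauge of depth, for which pile-ups were not scaled. An absent peak is thus not evidence of closed chromatin.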

Other observations

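Of the 4 germ cell genes Ddx4, Dazl, Prm1 and Tnp1, Dazl had a promoter peak, in BPA 2 alone, at 8.27% of its list, better than any promoter peak of the 10 epithelial genes. Ddx4, Prm1 and Tnp1 had none in any library. Grhl1, a relative of Grhl2 and one of the 27 further epithelial genes, had a promoter peak in all 4 libraries. It ranked at 5.53%, 1.88%, 3.50% and 4.22% in control 1, control 2, BPA 1 and BPA 2. Grhl2 itself had a promoter peak in control 2 alone, at 70.5%. Wt1, a factor of mesothelium and of some fat progenitors, had a promoter peak in all 4 libraries at 30.9%, 26.1%, 20.5% and 20.9%. Upk3b and Muc16, surface genes of mesothelium, had one in both controls and BPA 1 and none in BPA 2. These genes were picked after their values were seen.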
